A study of Mus musculus with 24 samples.

Results

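The genes described here are the axon guidance ligands and receptors of the mouse genome that the array measured: the semaphorins of classes 3 to 7, the plexins and neuropilins, the Slits and Robos, the netrins and Unc5 receptors, and the ephrins and Eph receptors. The rule uses the symbol alone and no measured value, and 56 of the 12394 genes on the array bear such a symbol. The 56 are 17 semaphorins, 7 plexins, 2 neuropilins, 3 Slits, 3 Robos, 3 netrins, 2 Unc5 receptors, 8 ephrins and 11 Eph receptors. Where several probe sets name a gene, the brightest on average over the 24 arrays was read, and a level below is log2(intensity + 16).

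Axon guidance molecules are secreted or membrane-bound cues and the receptors that read them, and in the cerebellum they steer growing axons and migrating granule neuron precursors, the cells from which Sonic hedgehog medulloblastoma arises. Semaphorins signal through plexins, with neuropilins as co-receptors for most class 3 semaphorins, Slits through Robos, and netrins through Unc5 receptors. Ephrins and Eph receptors sit on touching cells and signal in both directions.

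The study compared 3 wild-type cerebella (2 at P6, which is postnatal day 6, and 1 adult), 3 primary medulloblastomas (MB) from adult Ptch1 mutant mice, and 18 cultures of the medulloblastoma lines SMB21, SMB55 and SMB56. The lines came from spontaneous tumours of Ptch+/- mice, are labelled Ptch1 mutant, and grew as neurospheres in DMEM/F12 with B27 and without serum. SMB21 has 4 of the 8 parental arrays, and SMB55 and SMB56 have 2 each. The GF group, with 1 array per line, had been kept for more than 3 weeks with EGF at 20 ng/mL, bFGF at 20 ng/mL and heparin. RAS transformed cells fill the other 7 arrays, 3 from SMB21 and 2 from each other line; the RAS gene or allele and the vector are not given in the sources used here. Every culture, RAS and GF included, carries the Ptch1 mutant background, so no culture has wild-type Ptch1.

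Array medians lay between 189 and 245 intensity units. Parental arrays numbered 1 stood apart from others of their line in SMB21 and SMB56 in Y-linked, imprinted or other genes. The Y-linked gene Kdm5d had a level of 9.14 in SMB21 parental 1 and 8.86 in SMB21 GF, but 4.90 to 5.02 in the other 3 parental and the 3 RAS arrays of SMB21. In SMB56, Kdm5d was 8.73 and 8.25 in the parental arrays and 8.26 in GF, but 4.88 and 5.13 in RAS. The imprinted gene Ndn was 6.99 and 7.52 in SMB56 parental 1 and GF, against 9.46 in parental 2 and 9.71 and 9.27 in RAS, while Gpx7 was 11.07 and 10.07 in the former and 5.45 to 5.70 in the latter. Results that rest on the parental arrays are therefore also given without the 3 numbered 1, an alternative chosen after these values were seen, wherever that changes a call or a value by over 1.5 times. Of the granule neuron precursor markers, 8 of 8 were measured, and their summed intensity was 51200 to 56400 at P6, 68100 to 76300 in MB, 33300 to 48300 in parental SMB, 29400 to 39500 in GF and 20300 to 32500 in RAS cultures. The brightest markers dominate this sum. In the same order, the median level of the 8 was 12.29, 12.90, 12.20, 10.43 and 7.96. Against parental cultures, 6 of 8 were lower in RAS and 3 of 8 in GF at an adjusted p under 0.05 (limma). Of all genes, 17.9% and 4.96% were.

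Of the 56 genes, 38 reached the median level of all genes, 8.35, on at least 1 array, and 18 never did. The 18 were Efna2, Efna5, Epha1, Epha6, Ntn3, Ntn4, Plxna1, Robo3, Robo4, Sema3c, Sema4a, Sema5b, the 4 class 6 semaphorins Sema6a, Sema6b, Sema6c and Sema6d, Slit1 and Slit3. Sema6a, a transmembrane semaphorin that acts on precursor migration through the receptor Plxna2, was between 6.33 and 7.13 on all 24 arrays and passed no test. Efna5 was between 5.28 and 5.74 on the 24 arrays and likewise passed none. Of the 4 class 6 semaphorins, 3 spanned less than 1 log2 unit over the 24 arrays. The added 16 units make a fold change of such dim genes look smaller than it is.

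**Figure D1:**
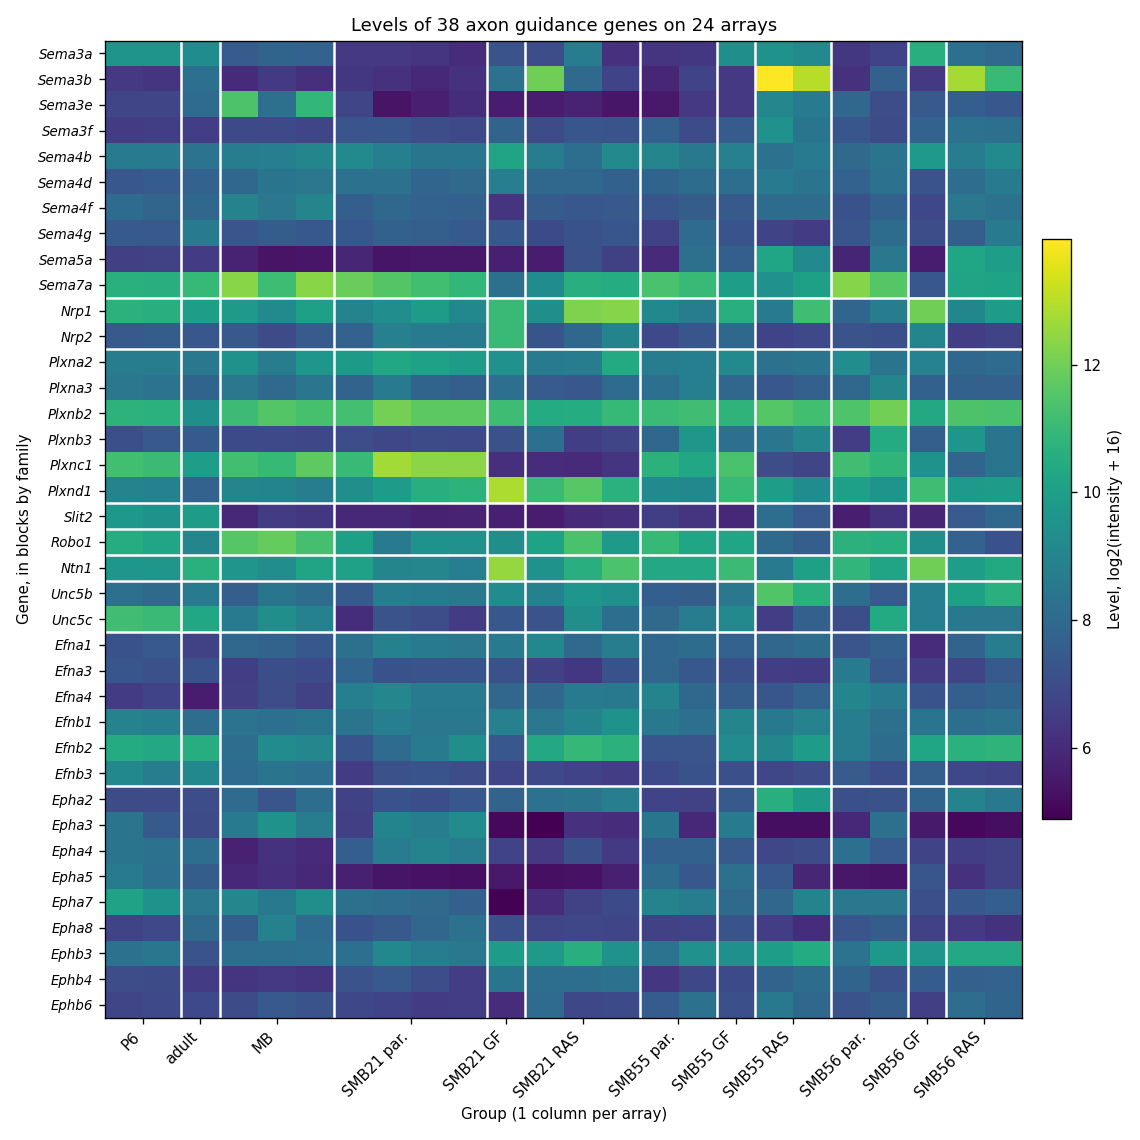
Levels, log2(intensity + 16) by colour, of the 38 genes that reached the median of all genes on some array (rows, in blocks by family) on the 24 arrays (columns, in blocks by group). Slit2 is bright only in the 3 cerebella and, more weakly, in the SMB55 and SMB56 RAS cultures, Sema3b is bright in 5 of 7 RAS cultures, and Plxnc1 is dim in the 7 RAS cultures and in SMB21 GF.

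In the primary tumours, a Slit and a class 3 semaphorin stood far below their level in P6 cerebellum, and few other guidance genes passed the test. Against P6, 2 of 56 genes were higher in MB and 5 were lower at an adjusted p under 0.05 (limma, Benjamini-Hochberg over 12394 genes), where 4.3% of all genes were higher and 6.68% were lower. These shares, 3.57% and 8.93% of the 56, lay near those of all genes, and the median difference was 0.08 against 0.05 over all genes. With 3 tumours and 2 P6 arrays, a gene that did not pass may still differ. Sema3e and Unc5c, for example, differed by 3.41 and -2.14 without passing.

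Slit2, the secreted repellent read by Robo receptors, was at 9.74 and 9.52 at P6, 9.88 in the adult cerebellum, and 5.93, 6.50 and 6.36 in the tumours. Tumours and cerebella did not overlap. Slit2 fell by 3.37 on the log2 scale (SE 0.23, adjusted p = 2.71e-04). Another Slit2 probe set, whose mean over the arrays was 5.26, gave -0.38, and the mean of both gave -1.87.

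Sema3a, a secreted repellent read by neuropilin and plexin A receptors, was at 9.57 and 9.58 at P6, 9.30 in the adult and 7.53, 7.83 and 7.75 in MB. All 3 tumours lay below all 3 cerebella. Sema3a fell by 1.87 (SE 0.13, adjusted p = 2.66e-04), and its other probe sets, with means of 6.67 and 5.59, gave -0.72 and -1.17.

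Among the Eph receptors, Epha4, named here after its values were seen, binds ephrins of both classes. Its level was 8.37 and 8.27 at P6 and 5.72, 6.22 and 5.98 in MB, and it fell by 2.34 (SE 0.26, adjusted p = 0.00204). Again no tumour reached a P6 array. The other Epha4 probe set, with a mean of 6.87, gave -0.28. The netrin receptor Unc5c was at 11.18 and 11.03 at P6 and at 8.64, 9.41 and 8.86 in MB. Its groups did not overlap, but its difference of -2.14 (SE 0.57) did not pass, with an adjusted p of 0.0601.

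The ephrins Efnb1 and Efnb3, ligands of the EphB receptors, differed by -0.54 (adjusted p = 0.0235) and -0.70 (adjusted p = 0.0454). Without P6 replicate 1 these p-values became 0.169 and 0.256, and without P6 replicate 2 they became 0.125 and 0.0817. With all 3 cerebella as the controls, Efnb1 differed by -0.30 (adjusted p = 0.366). Sema4d and Sema4f, membrane-bound class 4 semaphorins, were the 2 genes that rose. Sema4f was at 8.05 and 7.86 at P6 and at 8.96, 8.47 and 9.02 in MB, a rise of 0.86 (SE 0.19, adjusted p = 0.0359), which did not pass without P6 replicate 1 (adjusted p = 0.141), without P6 replicate 2 (0.249), or without MB replicate 1 or 3 (0.0811 and 0.0954). Sema4d rose by 0.82 (adjusted p = 0.032), but its other probe sets, with means of 6.45 and 6.18, gave 0.25 and 0.00.

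Some guidance genes were high in both tissues. Plxnc1, the receptor of Sema7a, was at 11.20 and 11.09 at P6 and at 11.21, 10.96 and 11.72 in MB. Sema7a itself, a lipid-anchored semaphorin, was at 10.65 and 10.62 at P6 and at 12.36, 11.16 and 12.36 in MB, a difference of 1.32 (adjusted p = 0.0792) that did not pass. Robo1, a Slit receptor, was at 10.50 and 10.25 at P6 and at 11.58, 11.83 and 11.28 in MB, and its difference of 1.19 (adjusted p = 0.0912) did not pass.

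Markers of other cell types differed between these groups too. The summed intensity of 5 Purkinje cell markers was 24400 to 25300 at P6 and 192 to 681 in MB, that of 9 pericyte and fibroblast markers 26200 to 28600 and 1960 to 5210, and that of 8 astrocyte markers 33500 to 35400 and 5800 to 7920. That of 11 endothelial markers was 7600 to 7750 and 1080 to 1830, and that of 12 microglial and macrophage markers 6400 to 8400 and 15800 to 25800. Their part in the differences of guidance genes was not tested. In bulk RNA, fewer cells of a type and less RNA per cell cannot be told apart.

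In the parental SMB lines, Slit2 and Sema3a were again far below P6 cerebellum, and the netrin receptor Unc5c, Nrp1, Efnb2 and Efnb3 were lower as well, while Efna4 was higher. Of 56 genes, 6 were higher and 10 were lower, where 14.6% of all genes were higher and 11% were lower. The Purkinje cell markers summed to 169 to 1030 in parental SMB against 24400 to 25300 at P6, the pericyte and fibroblast markers to 353 to 537 against 26200 to 28600, and the endothelial markers to 810 to 1200 against 7600 to 7750, and their part in these differences was not tested. Slit2 fell by 3.57 (SE 0.23, adjusted p = 1.35e-04), with the 8 parental arrays between 5.66 and 6.57 around a median of 5.91. Sema3a ranged from 6.03 to 6.72 with a median of 6.36 in these arrays and fell by 3.21 (SE 0.13, adjusted p = 1.51e-05). Neither gene's parental arrays came near the P6 level. The mean of all probe sets gave -2.09 for Slit2, and for Sema3a the change over the alternatives was smallest at -1.19.

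Unc5c was between 6.06 and 10.42 in the parental arrays, with a median of 7.13, and fell by 3.16 (SE 0.57, adjusted p = 0.00935). SMB21 was at 6.06, 7.20, 7.05 and 6.50, SMB55 at 8.04 and 8.72, and SMB56 at 7.07 and 10.42, so that all parental arrays lay below P6 but spread widely. Without the parental arrays numbered 1 the difference was -2.42 with an adjusted p of 0.0913, and without P6 replicate 1 or 2 the p was 0.0742 or 0.0664. Efnb2, the ephrin-B2 ligand, was at 10.48 and 10.38 at P6 and from 7.23 to 9.40, with a median of 8.09, in the parental arrays. No parental array reached P6, and Efnb2 fell by 2.42 (SE 0.44, adjusted p = 0.0091), with 0.0728 and 0.0656 when either P6 array was left out. 2 dim Efnb2 probe sets, with means of 6.33 and 5.90, are not in that value, and the mean of all 4 gave -1.15.

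Nrp1, the neuropilin that binds Sema3a, was at 10.71 and 10.60 at P6 and from 7.84 to 9.89 in parental SMB. It fell by 1.81 (SE 0.35, adjusted p = 0.0114), with 0.0847 and 0.0747 without P6 replicates 1 and 2. Efnb3 fell by 1.82 (adjusted p = 7.16e-04) and the Eph receptors Epha5 and Epha7 by 2.22 (adjusted p = 0.0479) and 1.36 (adjusted p = 0.0247). The other Epha5 probe set, with a mean of 5.46, gave -0.01 for MB against P6 and 0.07 for parental SMB against MB.

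Efna4, a lipid-anchored ephrin of the A class, went the other way. Its level was 6.50 and 6.73 at P6, 5.60 in the adult, 6.62, 7.02 and 6.68 in MB, and 7.94 to 9.08 with a median of 8.73 in parental SMB. All 8 cultures lay above all 6 tissues. Efna4 rose by 2.08 against P6 (SE 0.17, adjusted p = 4.09e-04) and by 1.92 against MB (SE 0.15, adjusted p = 8.14e-04), and both calls stood under every alternative tried. Plxnb2, a plexin of the B class, was at 10.74 and 10.67 at P6 and 11.08 to 12.07 in the lines. It rose by 0.80 (adjusted p = 0.0325), with 0.141 and 0.168 without either P6 array, and by 1.24 against all 3 cerebella.

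Against the primary tumours, 7 of 56 genes were higher in parental SMB and 7 were lower, where 12.4% and 8.19% of all genes were. The median difference was 0.06 against 0.03 over all genes, and these shares were near those of all genes. The parental lines stand in this comparison and in that against P6, which therefore share arrays.

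Sema3e, a secreted semaphorin that can signal through Plxnd1 without a neuropilin, was at 6.78 on both P6 arrays and 8.05 in the adult. In the tumours it was at 11.43, 8.25 and 10.90, and in parental SMB between 5.38 and 7.94 with a median of 6.23. The lowest tumour, MB 2, lay just above the highest culture. Against P6 the tumours differed by 3.41 (adjusted p = 0.0642), which did not pass. Sema3e fell by 3.72 from MB to SMB (SE 0.84, adjusted p = 0.0237), with 0.0627 and 0.0755 without MB replicates 1 and 3. The Y-linked gene Kdm5d was at 8.82, 5.14 and 8.94 in MB 1, 2 and 3, and Eif2s3y, also Y-linked, at 9.97, 5.10 and 5.74, so the tumours differed in these genes too.

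Robo1 fell by 1.33 (SE 0.34, adjusted p = 0.0343), from 11.28 to 11.83 in MB to between 8.65 and 10.95 in the lines. That call was lost without any 1 of the 3 tumours (adjusted p = 0.0852, 0.0818 and 0.0614) or without SMB55 parental 2 (0.071). Sema4f fell by 1.28 (SE 0.17, adjusted p = 0.00488) and Sema3a by a further 1.33 (SE 0.11, adjusted p = 0.00101), and these calls stood under every alternative, with Sema3a as small as -0.47 when its probe sets were taken otherwise. Epha4, low in the tumours, was at 7.50 to 8.96 with a median of 7.95 in the lines, above every tumour, a difference of 2.05 (SE 0.23, adjusted p = 0.00259), while its other probe set gave 0.31. Ephb3, a receptor for B-class ephrins, was higher by 0.71 (adjusted p = 0.00982), with 0.0862 and 0.0735 without SMB55 or SMB56 parental 2, and by 1.18 without the parental arrays numbered 1. Epha2 differed by -0.88 (adjusted p = 0.044), and its parental arrays of 6.63 to 7.34 overlapped the tumours' 7.29, 8.05 and 8.18. Its p became 0.119 without MB replicate 1 or 3 and 0.0614 without the parental arrays numbered 1.

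The microglial and macrophage markers summed to 488 to 623 in parental SMB, below every tumour, and the 11 endothelial markers to 810 to 1200. The part of stromal RNA in the differences between MB and SMB was not tested.

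**Figure D2:**
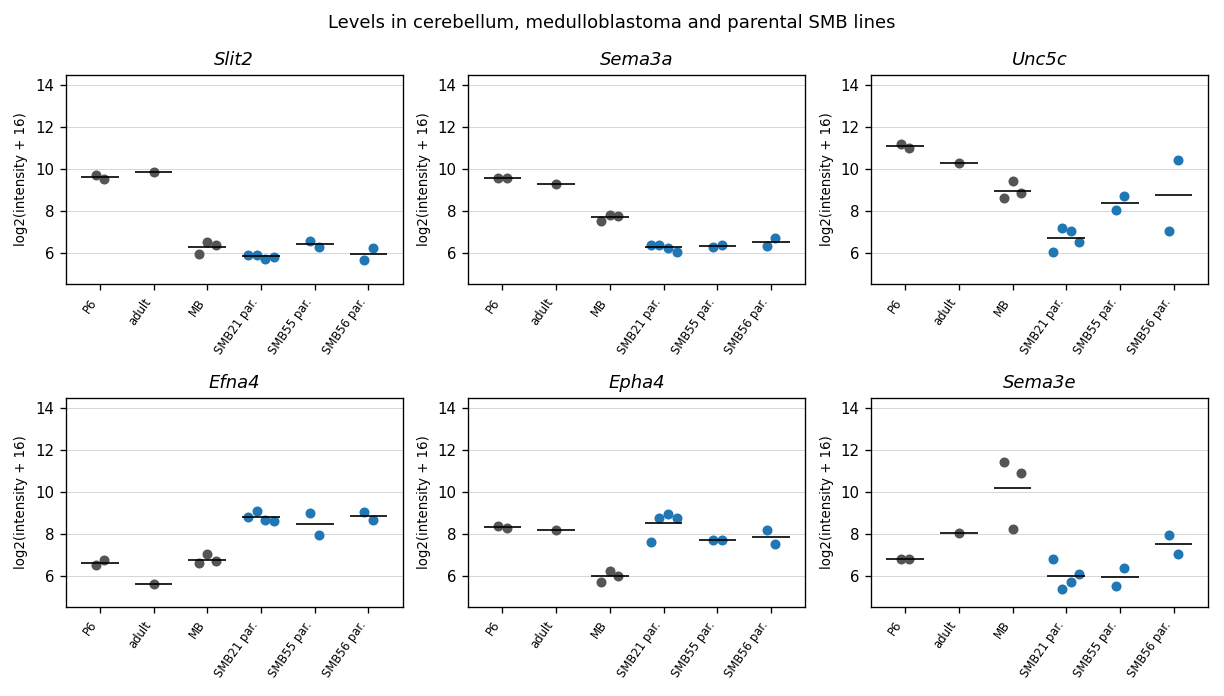
Levels, log2(intensity + 16), of 6 guidance genes in P6 and adult cerebellum, primary medulloblastoma (MB) and the 3 parental (par.) SMB lines; each point is 1 array and each line the group mean. Slit2 and Sema3a are high in the 3 cerebella only, Efna4 is higher in all 8 parental arrays than in any tissue, and Sema3e peaks in MB.

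The adult cerebellum was measured on 1 array, so its difference from P6 has no test. Of 56 genes, 5 were more than 2-fold higher in the adult and 7 more than 2-fold lower, lying outside both P6 arrays, where 9.24% and 8.81% of all genes were. The largest rise was of Sema3b, a secreted class 3 semaphorin, from 6.39 and 6.24 to 8.19, followed by Sema3e, Epha8, Sema4g and Sema6d. The 7 lower genes were Robo1 (9.03 against 10.50 and 10.25), Epha7, Plxnb2, Plxnc1, Ephb3, Plxnd1 and Efna4. Slit2, Sema3a and Efnb2 differed by less than 2-fold between P6 and the adult.

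Differences among the 3 parental lines passed for few of these genes. In an F test over lines, 1 of 56 genes passed, where 5.08% of all genes did. That gene was Epha5, an EphA receptor, at 8.08 and 7.35 in SMB55 and between 5.25 and 5.70 in the 6 other parental arrays (adjusted p = 0.01). The largest gap between its line means was 2.29. The count depended on the arrays numbered 1: without them 9 of 56 genes passed, where 11.2% of all genes did, namely Epha3, Epha4, Epha6, Ntn3, Plxnb3, Plxnc1, Sema3e, Sema5a and Unc5c, while Epha5 did not (adjusted p = 0.0673). Plxnb3, a B-class plexin, was at 7.93 and 9.70 in SMB55 parental 1 and 2 and at 6.56 and 10.47 in SMB56 parental 1 and 2. Sema5a, a transmembrane semaphorin, was at 5.97 and 8.23 in SMB55 and 5.84 and 8.53 in SMB56. In both lines parental 2 was the higher, for both genes. Most oligodendrocyte lineage markers moved alike, but Mog, Mobp and Mal were nearly unchanged. The summed intensity of the list ran from 3840 to 16300 in parental SMB55 and from 1740 to 11300 in parental SMB56. Sox10 was at 10.15 and 12.27 in SMB55 and 7.87 and 12.45 in SMB56 parental 1 and 2. The part of these markers in the differences was not tested. Leaving out SMB21 parental 1 alone gave 7 genes (10.3% of all genes), leaving out SMB55 parental 1 gave 0 (1.9%), and leaving out SMB56 parental 1 gave 3 (7.43%).

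With EGF and bFGF, both neuropilins, Plxnd1, Sema3a and Ntn1 rose in the SMB lines, and Sema7a fell. Of 56 genes, 6 were higher and 4 were lower in GF than in parental cultures in a fit with the line as a term, where 3.99% of all genes were higher and 4.96% were lower. The shares of the 56 were 10.7% and 7.14%, and the median difference was -0.05 against -0.01 over all genes. The GF group has 1 array per line, and all 3 bear the number 1, which they share with the parental arrays described above. With a replicate block for these numbers 5 genes were called, 4 higher and 1 lower, where 1.96% of all genes were, and with 1 mean per line and treatment 0 were called, where 19 of all genes were.

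Nrp1 was at 11.03 in SMB21 GF, 10.61 in SMB55 GF and 12.00 in SMB56 GF, against 8.99, 9.34, 9.89 and 9.13 in parental SMB21, 9.11 and 8.74 in parental SMB55, and 7.84 and 8.69 in parental SMB56. Every GF array lay above every parental array. Nrp1 rose by 2.40 (SE 0.65, adjusted p = 0.0318), and by 3.09 in the replicate block (adjusted p = 0.0364). Without the parental arrays numbered 1 the value was 2.32 with an adjusted p of 0.0777, and without SMB55 GF or SMB56 GF the p was 0.0554 or 0.23.

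Nrp2, the neuropilin better known as the receptor of Sema3f, was at 11.03, 7.91 and 9.06 in GF of SMB21, SMB55 and SMB56. Its parental arrays were at 7.73, 8.83, 8.65 and 8.67, at 6.90 and 7.30, and at 7.22 and 7.10. Within each line GF was the highest, and Nrp2 rose by 1.79 (SE 0.35, adjusted p = 0.00593). Without SMB21 GF the adjusted p was 0.0636. Plxnd1, a plexin that reads Sema3e, was at 12.84, 11.01 and 11.18 in GF and between 9.14 and 10.76 in the parental arrays, with no overlap. It rose by 2.03 (SE 0.30, adjusted p = 0.00161) and by 2.09 in the replicate block (adjusted p = 0.0341).

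Sema3a was at 7.22, 9.41 and 10.59 in GF against 6.03 to 6.72 in the 8 parental arrays. It rose by 2.56 (SE 0.55, adjusted p = 0.0108), by 0.96 over the parental mean in SMB21, 3.09 in SMB55 and 4.06 in SMB56. Without SMB56 GF the adjusted p was 0.1, and in the replicate block the value was 2.65 with 0.0722. Ntn1, netrin-1, was at 12.54, 11.08 and 11.99 in GF against 8.81 to 10.85 in the parental arrays. Its GF arrays were again the highest, and Ntn1 rose by 2.00 (SE 0.53, adjusted p = 0.0284). That call was lost in the replicate block (2.01, adjusted p = 0.136), without SMB21 GF (adjusted p = 0.188) and without SMB56 GF (0.0889), and leaving out the line SMB21 gave 1.09. Sema4b, the other gene that rose, was at 10.19 and 9.76 in GF of SMB21 and SMB56 but at 8.83 in SMB55 GF, inside the parental range (1.03, adjusted p = 0.0383, and 0.197 in the replicate block).

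Sema7a was at 8.24, 9.97 and 7.37 in GF of SMB21, SMB55 and SMB56, below its 8 parental arrays, which ran from 10.90 to 12.30 around a median of 11.44. It fell by 2.96 (SE 0.45, adjusted p = 0.00177), with -2.98 in the replicate block (adjusted p = 0.0363). Its receptor gene Plxnc1 was at 6.15 in SMB21 GF, 11.37 in SMB55 GF and 9.53 in SMB56 GF, which is below the parental arrays in 2 lines and above them in SMB55. The Plxnc1 difference of -2.53 (adjusted p = 0.0817) did not pass. Epha7 and Epha4 fell by 1.87 (adjusted p = 0.00385) and 1.14 (adjusted p = 0.0297), with adjusted p of 0.0694 and 0.145 in the replicate block. Averaged over the lines, the other Epha7 probe sets gave -0.37 and -0.26, and the other Epha4 probe set gave -0.59. Efna4 fell by 1.09 (adjusted p = 0.0109), with 0.0747 in the block and 0.087 without SMB56 GF.

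Against the parental array numbered 1 of the same line, which shares the Y-linked pattern of its GF array, the differences were alike in direction. Nrp1 was higher by 2.04, 1.49 and 4.17 in SMB21, SMB55 and SMB56, Nrp2 by 3.30, 1.01 and 1.84, Plxnd1 by 3.46, 1.80 and 1.17, and Sema3a by 0.84, 3.15 and 4.24. For Sema7a the differences were -3.64, -1.39 and -4.93. The summed intensity of 8 astrocyte markers was 22400 to 32600 in GF and 5490 to 22000 in parental cultures. Their median level was 7.52 in GF and 7.10 in parental cultures. Only 1 of the 8 was called higher in GF, where 3.99% of all genes were. The part of these markers in the differences of guidance genes was not tested.

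**Figure D3:**
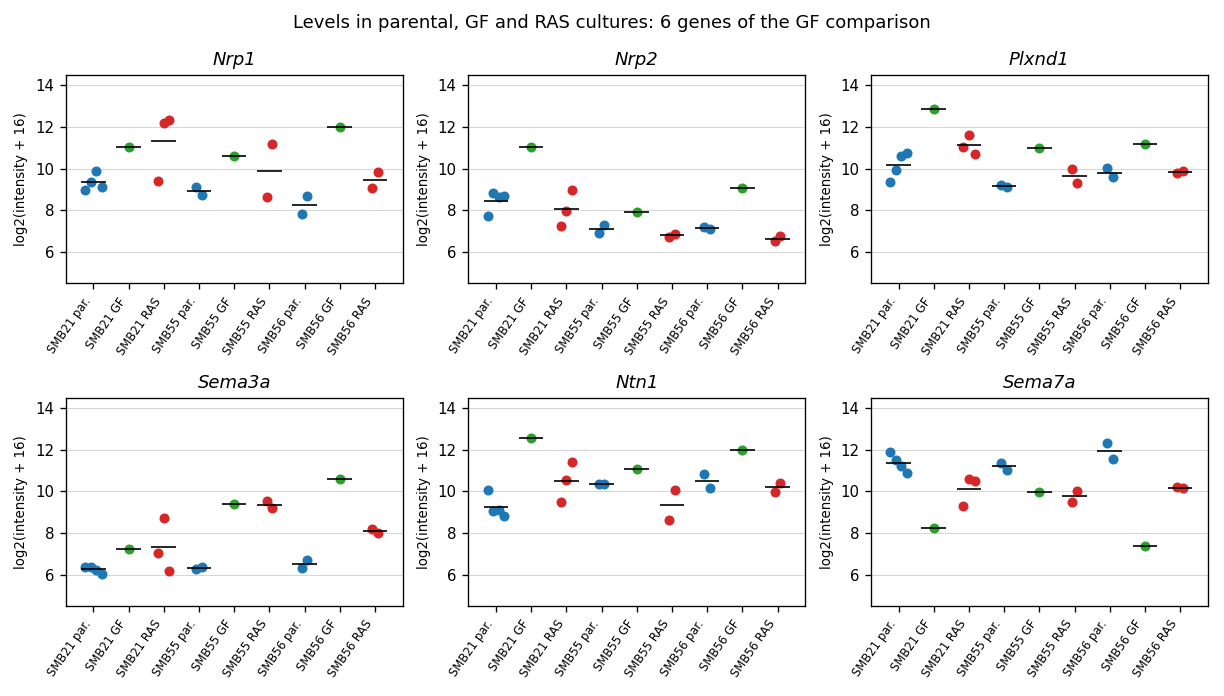
Levels, log2(intensity + 16), of 6 guidance genes in parental (par., blue), GF (green) and RAS (red) cultures of the 3 SMB lines; each point is 1 array and each line the group mean. In each line the GF array lies above the parental arrays for Nrp1, Nrp2, Plxnd1, Sema3a and Ntn1, and below them for Sema7a.

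In RAS cultures the ligands Sema3b and Efnb2 and the receptors Unc5b and Epha2 rose, and the receptor Plxnc1 and its ligand Sema7a fell. Of 56 genes, 12 were higher and 14 were lower in RAS than in parental cultures, where 14.1% of all genes were higher and 17.9% were lower. The shares of the 56 were 21.4% and 25%, and the median difference was -0.06 against -0.05 over all genes. Without the parental arrays numbered 1, 17 genes were called, 16 of them among the 26, where 24.4% of all genes were. With 1 mean per line and treatment only Ephb3 (1.32, adjusted p = 0.0303) and Ephb6 (0.52, adjusted p = 0.0475) were called, where 5.38% of all genes were. In that fit Sema3b (adjusted p = 0.0729), Efnb2 (0.111), Unc5b (0.0588), Epha2 (0.0559), Plxnc1 (0.114) and Sema7a (0.226) did not pass. In SMB56 both parental arrays had the Y-linked Kdm5d and neither RAS array did, with or without parental 1, so RAS and this pattern cannot be told apart in that line. The comparisons of GF and of RAS with the parental cultures share the parental arrays.

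The upstream sequences of 2 of these genes are shown as examples of a gene that rose and a gene that fell in all 3 lines and whose responses differed in size between lines. Efnb2 and Sema7a also changed in 1 direction in every line. Epha2 and Plxnc1 each have 1 promoter entry in the RefSeq table of build GRCm38.p6. Epha2 lies on the plus strand, and the bases are chr4:141300971-141301220. Plxnc1 lies on the minus strand, at chr10:94944846-94945095. Each run is 5′ to 3′, ends at the last base before the gene's start, and has any motif match in capitals.
Epha2: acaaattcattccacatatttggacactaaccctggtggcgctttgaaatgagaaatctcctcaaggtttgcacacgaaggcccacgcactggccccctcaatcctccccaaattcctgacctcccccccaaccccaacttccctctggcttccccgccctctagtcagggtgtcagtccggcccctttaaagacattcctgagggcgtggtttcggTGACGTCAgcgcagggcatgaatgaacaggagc
Plxnc1: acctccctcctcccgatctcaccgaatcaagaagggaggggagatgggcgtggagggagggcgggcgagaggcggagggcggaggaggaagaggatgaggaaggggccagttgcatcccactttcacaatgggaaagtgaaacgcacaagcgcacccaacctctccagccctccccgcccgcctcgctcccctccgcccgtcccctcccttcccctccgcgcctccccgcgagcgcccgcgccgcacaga
4 motifs were searched on both strands of the 250 bases. They were TGANTCA, the site of AP-1, and CCGGAAG, an ETS core, TGGGTGG, the core of the GLI site, and TGACGTCA, the CRE site, which was added after the Epha2 sequence was seen. Epha2 has 1 match, to TGACGTCA, starting at position -33 from the gene's start, and Plxnc1 has 0. Of 32851 promoters, 6.75% hold TGANTCA in these 250 bases, 6.91% CCGGAAG, 8.11% TGGGTGG and 1.55% TGACGTCA. Because the motif matched in Epha2 was added with that sequence in view, its share of promoters cannot gauge how unusual the match is. Efnb2, Sema7a and Unc5b, the other genes named in this comparison with 1 entry, have 0 matches to the 4 motifs. The upstream bases of Epha2 are 55.6% G or C and those of Plxnc1 68.8%.

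Among the ligands, Sema3b was at 5.87 to 7.67 with a median of 6.20 in the 8 parental arrays. In RAS cultures it was at 12.00, 7.99 and 6.70 in SMB21, 13.96 and 12.97 in SMB55, and 12.74 and 11.02 in SMB56. In each line every RAS array lay above every parental array, but the RAS arrays of SMB21 spread over more than 5 log2 units. Sema3b rose by 4.57 (SE 0.85, adjusted p = 9.72e-04). Within lines the rise was 7.17 in SMB55 (adjusted p = 0.00331) and 4.96 in SMB56 (adjusted p = 0.0346), and the difference in SMB21 was 2.73 (adjusted p = 0.0806). The SMB56 call was lost without parental 1 of that line (adjusted p = 0.205) and without RAS replicate 1 or 2 (0.184 and 0.096).

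Efnb2 was at 10.38, 10.92 and 10.71 in SMB21 RAS, 9.07 and 9.90 in SMB55 RAS, and 10.68 and 10.79 in SMB56 RAS. The parental arrays were at 7.23, 8.07, 8.60 and 9.40, at 7.27 and 7.28, and at 8.73 and 8.11. In each line all RAS arrays were above all parental arrays. Efnb2 rose by 2.27 (SE 0.38, adjusted p = 4.84e-04), by 2.34, 2.21 and 2.32 in the 3 lines, while the mean of its 4 probe sets gave 1.21. In SMB56 the adjusted p of 0.0219 became 0.0671 and 0.0636 without either parental array and 0.0892 and 0.124 without either RAS array.

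Sema3a rose by 1.71 (SE 0.42, adjusted p = 0.0063), with RAS arrays at 7.05, 8.75 and 6.18 in SMB21, 9.53 and 9.20 in SMB55, and 8.19 and 7.99 in SMB56. SMB21 RAS 3 lay inside the parental range, and in the fit without the line SMB55 the adjusted p was 0.112. Sema3f rose by 0.78 (adjusted p = 0.027), and its rise lay in SMB55 (1.62, adjusted p = 0.00483) and SMB56 (1.12, adjusted p = 0.0429). Slit2, nearly silent in the parental lines, was at 8.17 and 7.48 in SMB55 RAS and 7.51 and 7.97 in SMB56 RAS but 5.63, 5.98 and 6.14 in SMB21 RAS. Over all lines it rose by 0.91 (adjusted p = 0.012), or 0.41 in the mean of both probe sets, with 0.0537 without the parental arrays numbered 1. Sema5a rose by 1.93 (adjusted p = 0.0108), and by 1.33 with an adjusted p of 0.0553 without the arrays numbered 1. In SMB56 its rise of 2.94 (adjusted p = 0.0482) became 1.59 (adjusted p = 0.166) without them.

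Sema7a fell by 1.45 (SE 0.34, adjusted p = 0.0048), with RAS arrays at 9.29 to 10.59 and parental arrays at 10.90 to 12.30. The groups did not overlap in any line. Within lines it fell by 1.25 in SMB21 (adjusted p = 0.0237), 1.45 in SMB55 (0.0378) and 1.77 in SMB56 (0.0275), and without the arrays numbered 1 these p-values were 0.062, 0.143 and 0.174. Without SMB21 RAS 1 the SMB21 difference was -0.83 (adjusted p = 0.0849). The A-class ephrins Efna2, Efna3 and Efna4 fell by 0.36, 0.84 and 0.76 (adjusted p = 0.0334, 0.00878 and 0.00505). Without the arrays numbered 1 the p-values of Efna2 and Efna3 were 0.11 and 0.0688.

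Among the receptors, Plxnc1 was at 11.04, 12.69, 12.40 and 12.39 in parental SMB21, 10.73 and 10.33 in SMB55, and 11.19 and 10.82 in SMB56. In RAS cultures it was at 6.04, 5.99 and 6.30, at 7.02 and 6.78, and at 7.85 and 8.43. No RAS array came near its parental arrays. Plxnc1 fell by 4.57 (SE 0.65, adjusted p = 1.22e-04), and the change was -6.02 in SMB21 (adjusted p = 1.07e-06), -3.63 in SMB55 (3.54e-04) and -2.86 in SMB56 (0.00335). Its 3 other probe sets fell in all 3 lines too, by between 1.60 and 5.17, and the mean of all 4 gave -2.41 in SMB55. The A plexins Plxna1, Plxna2 and Plxna3 fell by 0.24, 0.70 and 0.62 (adjusted p = 0.0209, 0.0371 and 0.035). For Plxna2, SMB21 RAS 3 was at 10.42, above its 4 parental arrays, and without the arrays numbered 1 the adjusted p was 0.112. It was above 0.05 in 15 of 33 alternatives.

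Epha2, a receptor that several epithelial cancers express, was at 6.63 to 7.34 in the parental arrays and at 8.27, 8.39 and 8.78 in SMB21 RAS, 10.58 and 9.82 in SMB55 RAS, and 8.93 and 8.55 in SMB56 RAS. All 7 RAS arrays were above all 8 parental arrays. Epha2 rose by 2.04 (SE 0.28, adjusted p = 8.87e-05), by 1.43 in SMB21 (adjusted p = 8.92e-04), 3.51 in SMB55 (3.63e-05) and 1.61 in SMB56 (0.00574), and the within-line calls stood under every alternative. Ephb3, Ephb4 and Ephb6, the B-class Eph receptors measured, rose by 1.33, 0.96 and 0.54 (adjusted p = 6.76e-04, 0.00211 and 0.0289), and Ephb6 had an adjusted p of 0.132 without the arrays numbered 1.

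Of the 8 EphA receptors, 4 fell and Epha2 was the only 1 that rose. Epha3 was at 4.89 to 6.17 in RAS and 5.89 to 9.28 in parental arrays and fell by 2.31 (SE 0.61, adjusted p = 0.00977). Parental 1 was the lower in SMB21 (6.60, against 8.70 to 9.28 in the others) and SMB56 (5.89, against 8.24), and the higher in SMB55 (8.43, against 5.89). Epha4 fell by 1.42 (SE 0.23, adjusted p = 3.59e-04), Epha7 by 1.09 (adjusted p = 0.0042) and Epha8 by 0.83 (adjusted p = 0.00238). In SMB21, SMB55 and SMB56 the other Epha4 probe set gave -0.90, -0.40 and -0.34. The other Epha7 probe sets, with means of 6.48 and 5.67, did not fall in every line. They gave -0.24, 0.29 and -0.14, and -0.24, 0.24 and 0.25. The other Epha3 probe sets, with means of 6.19 and 5.11, gave -1.21, -0.82 and -0.82, and -0.17, -0.20 and -0.18. For Epha3 in SMB21 the value was -2.69 (adjusted p = 0.0333), and the p ranged up to 0.128 when an array of that line was left out.

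Unc5b, a netrin receptor, was at 8.89, 9.64 and 9.43 in SMB21 RAS, 11.49 and 10.64 in SMB55 RAS, and 10.05 and 10.65 in SMB56 RAS. Parental arrays were at 7.43 to 8.74. RAS lay above parental in every line, and Unc5b rose by 2.09 (SE 0.36, adjusted p = 5.15e-04), by 3.49 in SMB55 (5.05e-04) and 2.52 in SMB56 (0.00696, and 0.0687 without RAS replicate 2), with a difference of 1.00 in SMB21 (0.0652). Nrp1 rose by 1.47 (adjusted p = 0.0331), but its RAS arrays ran from 8.62 to 12.33 and overlapped the parental arrays in SMB21 and SMB55. That call was lost in 13 of 33 alternatives, among them the fit without the arrays numbered 1 (1.38, adjusted p = 0.119).

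**Figure D4:**
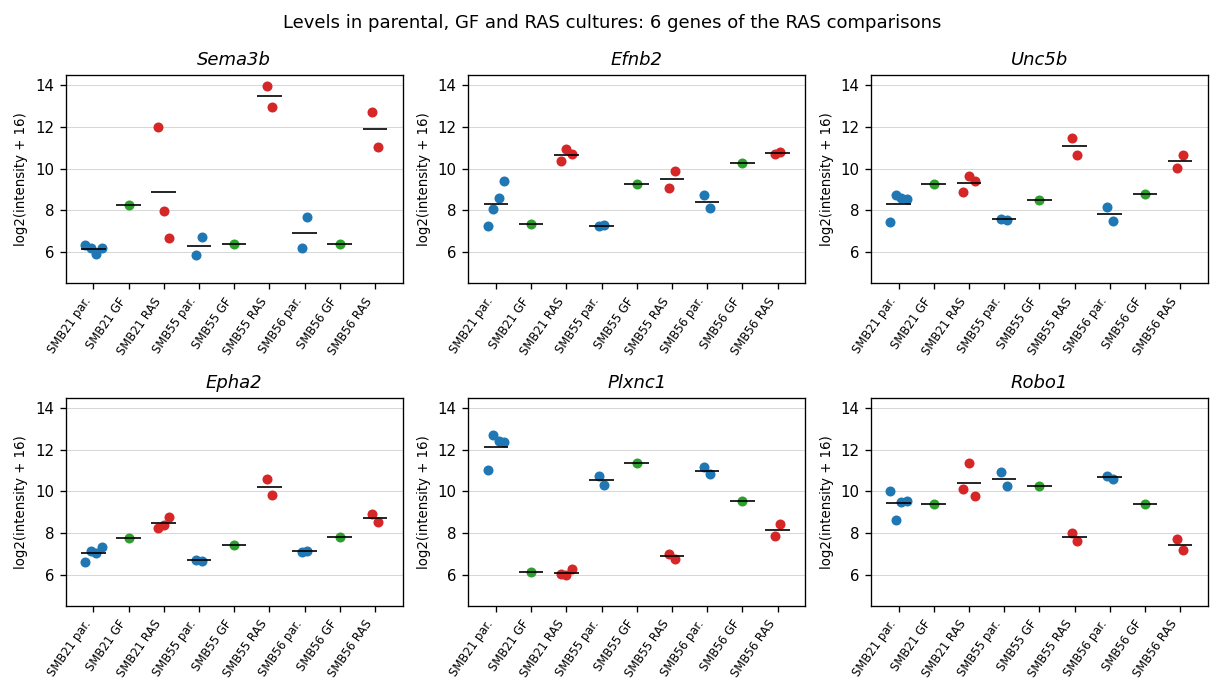
Levels, log2(intensity + 16), of 6 guidance genes in parental (par., blue), GF (green) and RAS (red) cultures of the 3 SMB lines; each point is 1 array and each line the group mean. RAS arrays lie above the parental arrays of their line for Sema3b, Efnb2, Unc5b and Epha2 and below them for Plxnc1, while Robo1 is low in the RAS arrays of SMB55 and SMB56 only.

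The response of some genes to RAS differed between the 3 lines, and among those that passed the test Robo1 had the smallest p. In SMB21, 4 of 56 genes were higher and 8 lower, where 9.1% and 10.3% of all genes were, and of the 12 called genes 8 were Eph receptors. Eph receptors make up 11 of the 56 genes and semaphorins 17. Epha6, among the 8, was never above 6.49, and its SMB21 parental 1, at 5.24, lay near the RAS arrays at 5.18, 5.09 and 5.14. In SMB55, 11 were higher and 6 lower (10.6% and 10.9% of all genes), with 6 semaphorins among the 11: Sema3a, Sema3b, Sema3c, Sema3e, Sema3f and Sema4f. In SMB56, 8 were higher and 4 lower (6.14% and 5.9% of all genes), with the semaphorins Sema3b, Sema3f, Sema4f and Sema5a among the 8. A test of the difference between lines, an F test on the response, passed for 6 of 56 genes, where 3.45% of all genes passed: Robo1, Epha2, Plxnc1, Sema3e, Sema4f and Slit2. With a replicate block 0 of 56 passed, where 9 of all genes did. RAS and parental arrays of the same number did not deviate together, with correlations from -0.154 to -0.020.

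Robo1 was at 10.14, 11.37 and 9.78 in SMB21 RAS against 10.04, 8.65, 9.51 and 9.55 in parental SMB21, which overlap. In SMB55 it was at 8.01 and 7.64 in RAS against 10.95 and 10.24, and in SMB56 at 7.73 and 7.18 against 10.73 and 10.62, both without overlap. The response was 0.99 in SMB21 (adjusted p = 0.107), -2.77 in SMB55 (SE 0.52, adjusted p = 0.0037) and -3.22 in SMB56 (SE 0.52, adjusted p = 0.00406), and the lines' responses differed (adjusted p = 0.00904). The fit over all lines gave -1.17 and did not pass (adjusted p = 0.14).

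Slit2, a ligand of Robo1, rose in the lines where Robo1 fell, by 1.41 in SMB55 (adjusted p = 0.00405) and 1.80 in SMB56 (adjusted p = 0.00305), with 0.08 in SMB21 (adjusted p = 0.842). The mean of both Slit2 probe sets gave 0.67 and 0.92 in SMB55 and SMB56, and the dimmer probe set alone gave -0.07 and 0.04. Its responses differed by line (adjusted p = 0.0297), but not in 9 of 28 alternatives, the fit without the arrays numbered 1 among them (adjusted p = 0.0862). Sema3e was at 9.09 and 8.67 in SMB55 RAS against 5.52 and 6.39 in parental SMB55, a rise of 2.92 (adjusted p = 0.00119). In SMB21 and SMB56 its RAS arrays, 5.43 to 5.78 and 7.36 to 7.60, lay within the parental ranges. The lines' Sema3e responses differed with an adjusted p of 0.0195, and with 0.0753 and 0.0789 without SMB55 parental 1 or SMB55 RAS 1. Sema4f rose in SMB55 by 0.67 and in SMB56 by 0.95 (adjusted p = 0.0208 and 0.00824), and the line responses differed (adjusted p = 0.0198). Epha2 and Plxnc1 kept 1 direction in all lines and differed in size, by up to 2.07 and 3.16 between lines (adjusted p = 0.0189 for each). Without SMB55 parental 1 or 2 or SMB55 RAS 1 the p of Epha2 was 0.0612, 0.0561 and 0.0647, and without SMB56 RAS 2 that of Plxnc1 was 0.0614.

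Of the 9 pericyte and fibroblast markers, 6 were called higher with RAS in SMB21, where 9.1% of all genes were, while Col1a2 and Aldh1a2 hardly changed. In SMB55 and SMB56, 2 of 9 were called higher in each, where 10.6% and 6.14% of all genes were. The sums below are dominated by the brightest markers, such as Col3a1 in SMB21 RAS and Foxc1 in SMB55 RAS. The 9 measured markers summed to 5600 to 17400 in SMB21 RAS against 353 to 392 in its parental arrays, to 1610 to 1820 against 454 to 494 in SMB55, and to 734 to 992 against 363 to 537 in SMB56. Their part in the responses of guidance genes was not tested.

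**Figure D5:**
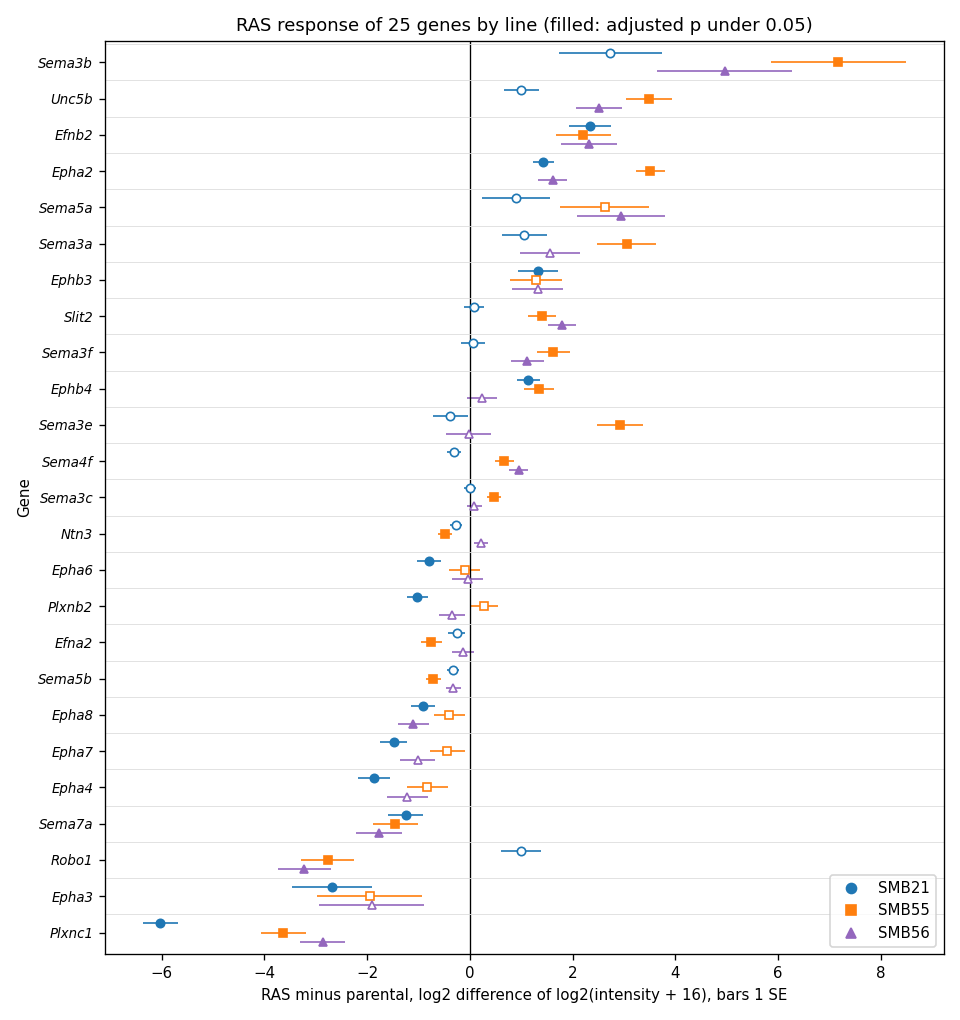
RAS minus parental difference, in log2 units with bars of 1 SE, of the 25 guidance genes called in at least 1 line, with SMB21 as circles, SMB55 as squares and SMB56 as triangles; filled symbols have an adjusted p under 0.05. Robo1 is 0.99 in SMB21 and below -2.5 in the other lines, and Efnb2 is between 2.21 and 2.34 in all 3.

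Between RAS and GF cultures, 7 of 56 genes were higher in RAS and 4 were lower, where 5.7% and 5.45% of all genes were. Nrp2 was at 7.26, 7.97 and 8.98 in SMB21 RAS, 6.72 and 6.89 in SMB55 RAS, and 6.53 and 6.76 in SMB56 RAS, all below the GF array of their line. The difference was large against its error (-2.18, SE 0.35, adjusted p = 0.00262). Plxnd1 (-1.45, adjusted p = 0.0101) and Ntn1 (-1.79, adjusted p = 0.0439) were lower as well, with adjusted p of 0.0522 and 0.183 without SMB21 GF. Epha2 was higher by 1.40 (adjusted p = 0.0275), with 0.164 without SMB55 GF, and by 0.81 without the line SMB55. Sema3b was higher by 4.18 (adjusted p = 0.0305), although SMB21 GF, at 8.27, lay above 2 of the 3 SMB21 RAS arrays. Slit2 was higher by 1.25 (adjusted p = 0.0279), and by 0.58 in the mean of its probe sets (adjusted p = 0.055). Sema7a was higher in RAS by 1.52 (adjusted p = 0.0447), although groups overlapped in SMB55, with GF at 9.97 and RAS at 9.48 and 10.04. Efnb2, Unc5b and Plxnc1, called in RAS against parental cultures, were not called against GF. In GF of SMB21, SMB55 and SMB56, Efnb2 was at 7.35, 9.28 and 10.26 and Unc5b at 9.27, 8.48 and 8.79. With a replicate block 2 of 56 genes were called, a count given here without its share of all genes. GF and RAS arrays also differ in the Y-linked pattern in SMB21 and SMB56, as given above, so treatment and this pattern cannot be told apart there.

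Of 90 other axon guidance genes in a list of co-receptors, further cues and intracellular effectors, 74 were measured. In RAS against parental cultures 15 rose and 20 fell, or 20.3% and 27% of the 74 where 14.1% and 17.9% of all genes did, with a median of -0.07 against -0.05 over all genes. Itgb1, an integrin subunit, and Vasp, an actin regulator, rose by 1.81 (adjusted p = 5.41e-05) and 1.19 (3.38e-05), and Dpysl4, a collapsin response mediator, and Rtn4r, the Nogo receptor, fell by 2.66 (7.16e-05) and 0.90 (5.03e-05). In GF against parental cultures 3 rose and 5 fell (4.05% and 6.76%, against 3.99% and 4.96% of all genes), with the adhesion molecule Chl1 up by 4.90 (adjusted p = 1.57e-04). In MB against P6, 5 rose and 3 fell (6.76% and 4.05%, against 4.3% and 6.68%), and the cue Wnt5a fell by 3.29 (adjusted p = 9.28e-04). In parental SMB, 10 rose and 12 fell against P6 (13.5% and 16.2%, against 14.6% and 11%), and L1cam, an axonal adhesion molecule, fell by 2.75 (adjusted p = 0.00177), while 5 rose and 12 fell against MB (6.76% and 16.2%, against 12.4% and 8.19%). Between RAS and GF cultures 6 were higher and 4 lower (8.11% and 5.41%, against 5.7% and 5.45%).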

How the data were processed

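The deposited table holds 1 linear intensity per probe set and array. Per the labels' protocols, total RNA was biotin labelled and hybridised to Affymetrix arrays; the authors' summarisation and normalisation are not stated in those labels, and arrays were not rescaled. Of 22690 probe sets, 20393 have 1 gene symbol, 691 several and 1606 none, and only the first were used, which gives 12394 genes. Each gene is its probe set with the highest mean, on a log2(intensity + 16) scale computed here from the deposited values.

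Tests used limma 3.58.1 in R 4.3.3 over all genes, two-sided, with Benjamini-Hochberg adjustment and a threshold of 0.05, and were tested on simulated data. No gene was filtered out. The tissue comparisons use 1 mean per SMB line, so their pooled spread mixes arrays and line means. GF and RAS were fitted with the line as a term. Responses within lines came from 1 model of the parental, GF and RAS arrays, with a mean for each line and treatment. The tests of parental against tumour and of parental against P6 share arrays. The titles call the replicates biological but do not say which cultures or animals they came from, so p-values measure only the spread between these samples. The label of P6 replicate 2 gives another age than its title; the title was followed.

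Centred on the treatment mean, GF arrays correlated with parental arrays of the same number at 0.216, 0.339 and 0.104 in SMB21, SMB55 and SMB56. Arrays of number 2 correlated with GF about as well (0.273, 0.205 and 0.110). Differences between lines stay in these values, so they cannot show pairing by number. The reported GF tests have no pairing term, and the replicate block is an alternative only. RAS with parental arrays, centred within line and treatment, and MB with P6, centred within group, did not deviate together by number. Where both groups of a line have 2 arrays, numbers 1 and 2 give the same correlation by construction.

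Genes named were, per comparison, up to 4 called rises and 4 called falls, the largest, with a group mean at or above the median of all genes and no overlap of arrays, plus 14 fixed symbols, of which 12 were measured; Robo2 and Ephb2 were not analysed here. For the tests between lines, up to 4 with the smallest p were named. Other genes given with values were chosen after their values were seen. The members, lists and rules were chosen with earlier results of these data known. Alternatives were other pseudocounts, scalings, filters, probe set rules, priors, groups in the fit, the replicate block, and leaving out each array or line. Promoter bases come from RefSeq, build GRCm38.p6.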

Additional observations from a re-analysis of the deposited data

Results flagged for a closer look

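In parental SMB21, replicate 1 lay far from the other 3 arrays for 4 of the 25 genes checked for such a gap. The cut-off is passed by about 1 gene in 20 by chance if genes vary independently, which genes read on the same arrays need not do. Only these 25 genes were checked, so the count does not tell guidance genes from other genes. Epha4 was at 7.59 there and at 8.74 to 8.96 on the others. Nrp2 was at 7.73 against 8.65 to 8.83, and Unc5b at 7.43 against 8.53 to 8.74. Sema5a was at 5.86 against 5.40 to 5.47. The same array differed from the others of its line in Kdm5d.

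The response to RAS differed between the lines for 6 genes by an F test on the response (limma, Benjamini-Hochberg over all genes). The adjusted p was 0.00904 for Robo1, 0.0189 for Epha2, 0.0189 for Plxnc1, 0.0195 for Sema3e, 0.0198 for Sema4f and 0.0297 for Slit2.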

How the results depend on the processing

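Counts of called guidance genes stayed within 1.5 times of the reported count 276 times under the alternatives and moved further 57 times. Of 71 pairs of a named gene and a comparison, 22 kept their call in every alternative run and 49 lost it in at least 1; over 2113 pairs and alternatives, 293 lost the call and 0 changed direction. With the replicate block the counts were 3 for MB against P6, 8 for parental SMB against P6, 7 for parental SMB against MB, 5 for GF, 2 for RAS against GF, 7 in SMB21, 6 in SMB56, and 0 for each test between lines. With 1 mean per line and treatment they were 0 for GF, 2 for RAS and 1 for RAS against GF. Without the line SMB21, GF gave 3 and RAS 17; without SMB55, RAS gave 16 and RAS against GF 3; without SMB56, GF gave 3, RAS against GF 3, parental SMB against P6 10 and against MB 8. In a fit of the groups compared alone, parental SMB against MB gave 6 and RAS against GF 6, and with all 3 cerebella as 1 group the former gave 8. The test between parental lines gave 2 without low genes, 2 with the mean of probe sets, and 9 without the arrays numbered 1, where RAS gave 17. Adult against P6 gave 7 with the higher pseudocount. Leaving out 1 array in turn gave 3 to 9 genes for MB against P6, 4 to 17 for parental SMB against P6, 6 to 17 against MB, 4 to 12 for GF, 20 to 27 for RAS, 3 to 12 for RAS against GF, 9 to 15 in SMB21, 10 to 20 in SMB55, 5 to 13 in SMB56, 4 to 9 for RAS responses by line and 0 to 7 between parental lines. The counts in this section stand without the matching shares of all genes. They therefore do not tell whether calls of guidance genes changed more or less than those of other genes. The number of arrays, 1 to 4 per line and treatment, limits the precision.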
